A study of Rattus norvegicus with 4 samples.

Results

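The genes described here are the matrix metalloproteases (Mmp), the Adamts proteases, the Adamts-like proteins (Adamtsl) and the tissue inhibitors of metalloproteases (Timp) in S16 cells, an immortalized line of rat Schwann cells, the glia of peripheral nerve. They were chosen by symbol alone: every gene whose symbol starts with Mmp and a digit, Timp and a digit, or Adamts was taken. This gave 50 of 30708 genes, made up of 23 Mmp, 18 Adamts, 5 Adamtsl and 4 Timp genes. Poly(A) RNA was sequenced from 2 cultures of S16 cells that carried no engineered change, grown in T-75 flasks without treatment. The culture at passage 9 was the parent of cells later mutated in the enhancer rSOX-4, and the other was an older culture at passage 39. Each passage had 2 libraries, labelled technical replicates 1 and 2, which gave 4 libraries in all. All 4 came from the same continuous cell line, so axons and the other cells of a nerve were not present in the culture by design. With 1 population per passage, no p-values are given, and the spread between libraries of a passage may be technical.

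The enzymes of these families hold a zinc ion in their active site and cut proteins of the extracellular matrix and of the cell surface. Most Mmp enzymes are secreted as inactive precursors, while the membrane-type Mmp enzymes stay anchored in the plasma membrane. Adamts enzymes carry thrombospondin repeats that hold them in the matrix, and Adamtsl proteins have the repeats but lack the protease domain. Timp proteins bind the active site of these enzymes and block it. In peripheral nerve the families are known from the remodelling of the basal lamina that surrounds each Schwann cell, during development and after injury.

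Expression values are RPKM, the reads of a gene per 1000 bases of its length and per 1000000 reads of the library, so that levels of different genes can be compared per length. The whole reads behind the values were recovered for all 50 genes, as the smallest numbers that fit. The library totals lay between 34246093 and 41382234 reads. Ranges in parentheses after a ratio are exact 95% intervals from these reads, and they cover counting error only. Across all genes the libraries grouped by technical replicate number rather than by passage. Of the 11025 genes that averaged 1 RPKM or more, 6.21% had both libraries of one passage above both of the other, whereas 87.7% had both libraries of one replicate number above both of the other. The difference between replicate numbers is therefore given beside each level. The labels do not say what a replicate number stands for, and what lies behind the difference was not tested. The samples are used as labelled throughout. Were the labels of replicate 2 of passage 9 and replicate 1 of passage 39 exchanged, each difference given here by replicate number would be a difference by passage and the reverse, and the values alone cannot tell these apart. In such bulk RNA, fewer cells that express a gene and less RNA per cell cannot be told apart either.

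The genes of these families ranged from among the most abundant of the cell to listed at 0. A mean of at least 1 RPKM was reached by 24 of the 50 genes, namely 6 Mmp, 11 Adamts, 4 Adamtsl and 3 Timp genes. Another 13 genes, 8 Mmp and 5 Adamts, had reads but a lower mean. The remaining 13 genes, 9 Mmp, 2 Adamts, 1 Adamtsl and 1 Timp, were listed at 0 in every library. A listed 0 need not mean absence. Of 95 genes with ribosomal protein symbols, 3 were also listed at 0 in all libraries. Such symbols include like-named relatives that not every cell uses, so these 3 do not settle what a listed 0 means. Gene lengths could not be recovered for genes with no reads, so no upper limit in RPKM is given for them.

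The inhibitors made up most of the RNA of these families. The 4 Timp genes together reached 918 and 919.6 RPKM in replicates 1 and 2 of passage 9 and 908 and 914 RPKM in replicates 1 and 2 of passage 39. Their mean was 915 ± 5.63 RPKM (SD over 2 passage means), or 61.1% of the sum over all 50 genes. The proteases were well below them and less even across libraries. The 23 Mmp genes together reached 320.3, 225, 320.3 and 220.3 RPKM in the same order of libraries, a mean of 272 ± 1.70 RPKM and 18.1% of the sum. The 18 Adamts genes reached 281, 215, 280.0 and 214 RPKM, a mean of 247 ± 0.445 RPKM and 16.5%. The 5 Adamtsl genes reached 58.2, 70.2, 56.1 and 69.4 RPKM, a mean of 63.5 ± 1.04 RPKM and 4.24%. The families thus differed by replicate number in opposite directions. In the replicate 2 libraries the summed Mmp RPKM was lower by 30.5% and the summed Adamts RPKM by 23.6%, while summed Adamtsl RPKM was higher by 22.1%. The summed Timp RPKM differed by 0.388%, but its genes differed in opposite directions. Timp3 averaged 504 RPKM in replicate 1 and 450 RPKM in replicate 2, and Timp2 216 and 260 RPKM. Since each passage mean averages over 1 library of each number, the SDs over passages are small and do not hold this difference.

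**Figure D1:**
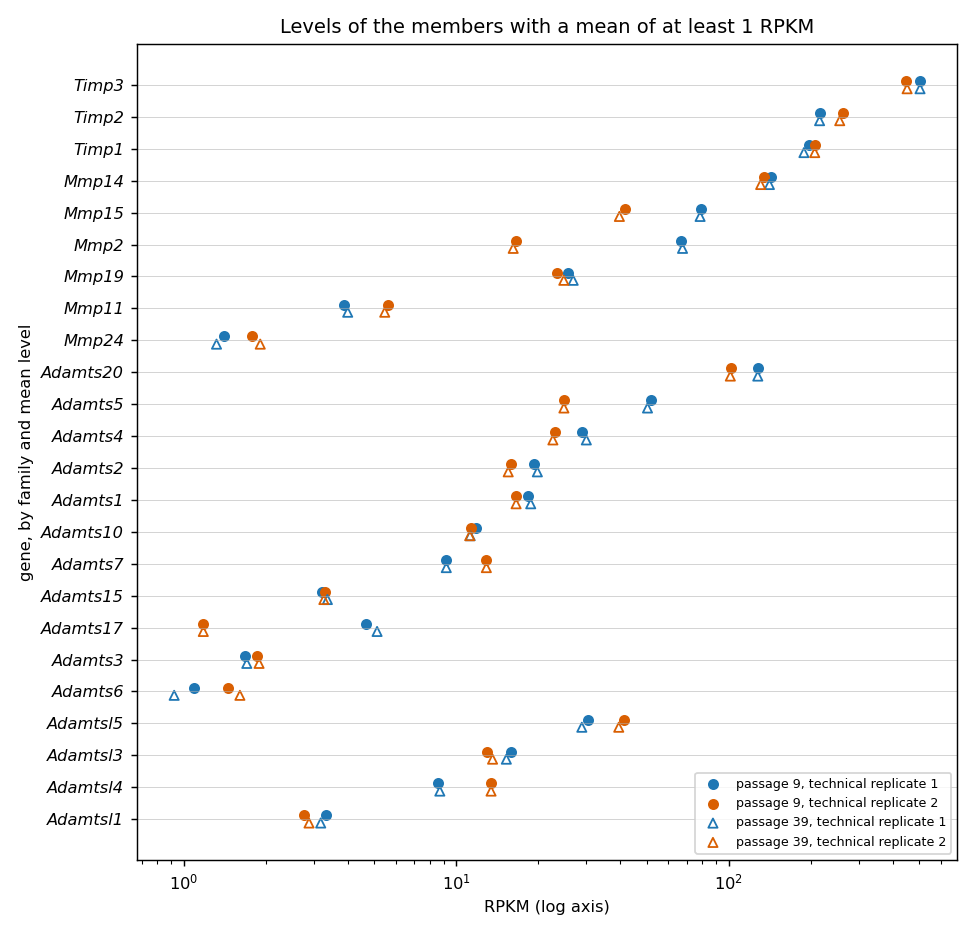
Levels of the 24 genes that averaged 1 RPKM or more, grouped by family (y axis), in RPKM on a log axis (x axis); circles are passage 9, triangles passage 39, blue technical replicate 1 and orange technical replicate 2. Circles and triangles of 1 colour lie close together for each gene, and the colours stand apart most for Mmp2, Adamts17, Adamts5 and Mmp15.

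Timp3 was the most abundant gene of these families and stood at rank 56 of all genes by mean RPKM. Timp3 stays bound to the matrix after secretion and inhibits Adamts enzymes as well as Mmp enzymes. Its level was 504 RPKM in replicate 1 and 448 RPKM in replicate 2 of passage 9, and 504 and 452 RPKM in replicates 1 and 2 of passage 39 (mean 477 ± 1.22). Both replicate 1 libraries lay above both replicate 2 libraries, by 1.13 times (1.12 to 1.14) in passage 9 and 1.12 times (1.10 to 1.13) in passage 39. Timp2, which can hold the precursor of Mmp2 to Mmp14 on the cell surface so that it is activated there, was at 217, 264, 216 and 256 RPKM in the same order (mean 238 ± 3.31, rank 156). It ran the other way, with both replicate 2 libraries higher, by 1.22 times (1.19 to 1.25) in passage 9 and 1.19 times (1.16 to 1.21) in passage 39. Timp1, a weak inhibitor of membrane-type Mmp enzymes, was at 198, 208, 189 and 207 RPKM (mean 200.4 ± 3.54, rank 196). Its replicate 2 libraries were higher by 0.10 on the log2(RPKM + 1) scale, as was the median of all genes, and the sign turned to -0.04 when libraries were scaled to a common sum of RPKM and to -0.12 after correction for gene length. Timp4 was listed at 0 in all libraries. The order Timp3, Timp2, Timp1 held in each of the 4 libraries. In the RefSeq table of a later build than that of the files, 3 of the 4 genes overlap a synapsin gene (Timp1 with Syn1, Timp3 with Syn3 and Timp4 with Syn2). Reads were counted without strand, so overlapping genes cannot be told apart, but Syn1 and Syn3 averaged 0.265 and 0.293 RPKM and Syn2 was listed at 0.

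Among the Mmp genes, 4 accounted for most of the RNA. Mmp14, the membrane-type enzyme that activates the precursor of Mmp2, was the most abundant at 143, 135, 141 and 131 RPKM in replicates 1 and 2 of passage 9 and replicates 1 and 2 of passage 39 (mean 137 ± 2.00, rank 336). The replicate 2 libraries were the lower ones in both passages, with a difference of -0.09 on the log2(RPKM + 1) scale (replicate 2 minus replicate 1, as for all such differences given here). Mmp15, also a membrane-type enzyme, was at 79.0, 41.6, 78.5 and 39.7 RPKM (mean 59.7 ± 0.826). Its replicate 1 libraries were 1.90 times (1.84 to 1.96) the replicate 2 library in passage 9 and 1.98 times (1.92 to 2.04) in passage 39.

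Mmp2, the gelatinase that degrades basement membrane collagen, differed most between replicate numbers of all 24 expressed genes on the log2(RPKM + 1) scale. It was at 66.7 RPKM in replicate 1 and 16.6 RPKM in replicate 2 of passage 9, and at 67.7 and 16.2 RPKM in replicates 1 and 2 of passage 39 (mean 41.8 ± 0.205). These values rest on 8200, 1733, 6889 and 1976 reads. The libraries fell into a high pair and a low pair that matched the replicate numbers and not the passages, with ratios of 4.01 (3.81 to 4.23) in passage 9 and 4.18 (3.98 to 4.40) in passage 39. On the log2(RPKM + 1) scale the difference was -1.97, and -2.07 relative to the median of all genes. As a ratio of mean RPKM, replicate 1 over replicate 2, Adamts17 was slightly further apart at 4.15 than Mmp2 at 4.10. Between passages Mmp2 differed by -0.01. Mmp9, the other gelatinase and a gene known to be induced in injured nerve, had 2, 3, 1 and 4 reads and a mean of 0.0214 RPKM.

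Of the other Mmp genes, 3 had a mean of at least 1 RPKM. Mmp19 was at 25.8, 23.4, 26.9 and 24.8 RPKM (mean 25.2 ± 0.895), with a difference of 0.07 between passages, the largest of the 24 genes. Mmp11, which furin activates inside the cell, was at 3.87, 5.63, 3.996 and 5.46 RPKM (mean 4.74 ± 0.0145), and the membrane-type gene Mmp24 at 1.40, 1.78, 1.32 and 1.91 RPKM (mean 1.60 ± 0.0157). The latter pair was higher in both replicate 2 libraries, Mmp11 by 0.41 and Mmp24 by 0.27 on the log2(RPKM + 1) scale. Mmp11 overlaps Chchd10 in the RefSeq table, which averaged 0.0701 RPKM. By class, 1 of 2 gelatinases, 1 of 3 stromelysins, 3 of 6 membrane-type genes and 1 of 7 other Mmp genes reached a mean of 1 RPKM, and 0 of 4 collagenases and 0 of 1 matrilysin did. Mmp17 was below this limit with a mean of 0.751 RPKM from 523 reads, and Mmp23 had 0.222 RPKM from 61 reads. Mmp25, Mmp20, Mmp21, Mmp28 and Mmp13 had between 1 and 9 reads each over the 4 libraries. Mmp1, Mmp1b, Mmp3, Mmp7, Mmp8, Mmp10, Mmp12, Mmp16 and Mmp27 were listed at 0. Mmp1 and Mmp1b are related genes, and only uniquely mapped reads were counted, so reads that fit both would be lost. How alike their sequences are was not examined, so their zeros are uncertain.

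The secreted Mmp genes of 1 chromosomal cluster were almost without reads. The cluster was singled out after its values were seen. In the RefSeq table of the GRCr8 build, 10 of the Mmp genes stand in the order Mmp13, Mmp12, Mmp1b, Mmp3, Mmp1, Mmp10, Mmp8, Mmp27, Mmp20 and Mmp7 on rat chromosome 8. They include the 4 collagenases, the matrilysin Mmp7 and the stromelysins Mmp3 and Mmp10. Together they had 4 reads over all 4 libraries, of which 1 fell on Mmp13 and 3 on Mmp20, the enamel protease. The next genes outside the cluster were not all silent. On the Mmp13 side Ddi1 had 1 read, Dync2h1 averaged 1.10 RPKM and Dcun1d5 29.9 RPKM, and on the Mmp7 side LOC102556477 averaged 0.0666 RPKM, Tmem123 34.8 RPKM and Birc2 7.63 RPKM. Genes of this cluster are known to be induced by cytokines and phorbol ester through an AP-1 site close to the transcription start, where Fos and Jun proteins bind. The RefSeq promoter windows, which run from 250 bases before to 50 bases after the start, were searched for the AP-1 motif TGANTCA. The motif reads the same on both strands, so 1 search covers both. Counted by gene, it was found for 7 of the 10 cluster genes (70%) and for 0 of the 29 other genes of these families with a window. Of the 19 genes with a window that averaged 1 RPKM or more, 0 had it. Of all 27457 genes with a window, 8.04% had it. Against so low a share, 0 of 19 draws no line between expressed and silent genes. Windows of the cluster genes were poorer in G+C, at 43.4% on average against 65.1% for the 29 others and 53.1% over all genes. The stretches around the motif are shown with the motif in capitals because 7 of the 10 cluster genes share it. They are from RefSeq on GRCr8, plus strand, 5′ to 3′, and the number after each place is the position of the motif's first base relative to the start.
Mmp13, chr8:12782749-12782783, -66: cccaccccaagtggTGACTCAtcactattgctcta
Mmp12, chr8:12866551-12866585, -87: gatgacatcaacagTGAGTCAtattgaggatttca
Mmp3, chr8:12925196-12925230, -71: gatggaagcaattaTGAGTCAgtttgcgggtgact
Mmp1, chr8:12943355-12943389, -84: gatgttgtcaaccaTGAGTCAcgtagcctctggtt
Mmp1, chr8:12943203-12943231, -242: aatggacaTGAATCAgagaaaacaagttt
Mmp10, chr8:12974632-12974666, -61: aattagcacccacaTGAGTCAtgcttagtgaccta
Mmp20, chr8:13074169-13074203, -96: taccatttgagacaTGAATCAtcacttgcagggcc
Mmp7, chr8:13132949-13132983, -80: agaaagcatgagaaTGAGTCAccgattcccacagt
In each of the 7 genes 1 motif began between positions -96 and -61, and Mmp1 had another at -242. The windows of Mmp1b, Mmp8 and Mmp27 held none. A match of 7 letters describes these windows and is not a measured binding site. No window was at hand for 11 of the 50 genes, which are Adamts5, Adamts8, Adamts15, Adamts16, Adamts19, Mmp2, Mmp9, Mmp14, Mmp16, Mmp17 and Mmp19.

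**Figure D2:**
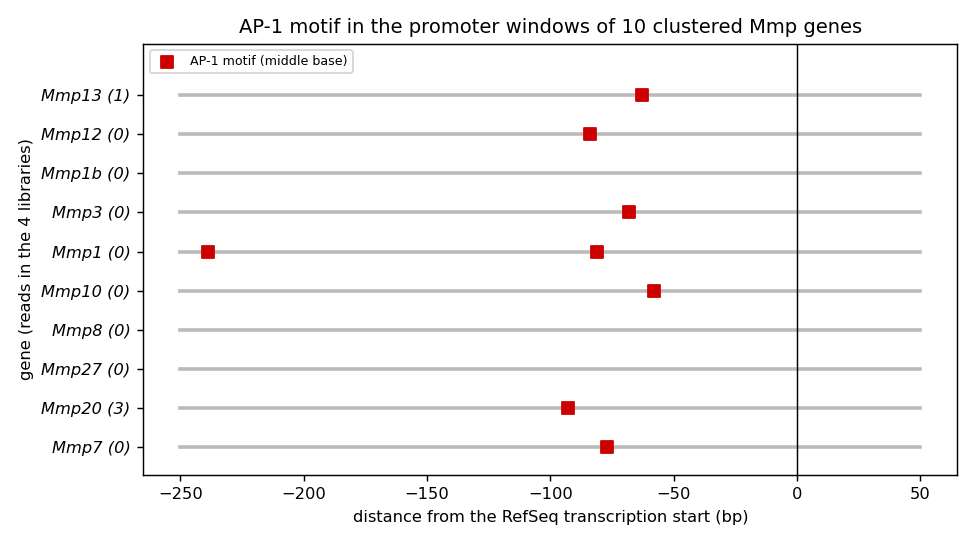
Promoter windows of the 10 clustered Mmp genes in their order on the chromosome (y axis, with the reads of each gene summed over the 4 libraries in parentheses), against the distance from the RefSeq transcription start in bases (x axis). Each grey line is 1 window and each red square the middle of an AP-1 motif; 7 of 10 windows hold one, and the 10 genes have 4 reads together.

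Among the Adamts proteases, genes of the proteoglycan-cleaving branch were the most abundant. Adamts20, known from the white belt of mice that lack it, was at 128, 102, 128 and 101 RPKM in replicates 1 and 2 of passage 9 and replicates 1 and 2 of passage 39 (mean 115 ± 0.280, rank 458). It made up between 45.7% and 47.4% of the summed Adamts RPKM in each library. Both replicate 1 libraries were above both replicate 2 libraries, a log2 difference of -0.33. Adamts5 and Adamts4, the aggrecanases, which also cut versican, stood at 52.0, 24.8, 50.3 and 24.8 RPKM for Adamts5 (mean 38.0 ± 0.546). For Adamts4 the levels were 29.1, 23.0, 30.02 and 22.6 RPKM (mean 26.2 ± 0.221). Adamts5 was 2.10 times (2.00 to 2.20) as high in replicate 1 as in replicate 2 of passage 9 and 2.03 times (1.93 to 2.12) in passage 39, a log2 difference of -1.01. Adamts4 differed by -0.36 in the same direction, so the ratio of Adamts5 to Adamts4 was 1.79 and 1.68 in the replicate 1 libraries and 1.08 and 1.10 in the replicate 2 libraries.

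The other proteoglycan-cleaving genes were lower. Adamts1, which cuts versican, was at 18.4, 16.6, 18.8 and 16.6 RPKM (mean 17.6 ± 0.116) and Adamts15 at 3.22, 3.29, 3.37 and 3.27 RPKM (mean 3.29 ± 0.0438). Adamts15 was one of only 2 expressed genes whose libraries overlapped between replicate numbers. Adamts9 had a mean of 0.844 RPKM, below the limit of 1 RPKM, and differed by replicate number, at 1.36, 0.333, 1.35 and 0.334 RPKM from 443, 92, 363 and 108 reads. Its replicate 1 libraries were 4.08 times (3.26 to 5.17) the replicate 2 library in passage 9 and 4.03 times (3.24 to 5.05) in passage 39. LOC102554570, which overlaps Adamts9 in the RefSeq table, had the same high and low pairs at 0.209, 0.00794, 0.163 and 0.0203 RPKM, and reads of these genes cannot be told apart without strand. Adamts8 had 3, 25, 5 and 34 reads, a mean of 0.124 RPKM, and went the opposite way, with ratios of replicate 2 to replicate 1 of 9.83 (3.00 to 50.8) in passage 9 and 5.67 (2.21 to 18.6) in passage 39. Of the 7 genes of this branch, 5 had a mean of at least 1 RPKM, and all 5 had a negative log2 difference, 4 of them without overlap, where 30.5% of all genes were lower without overlap. The difference of Adamts15, -0.00, turned to 0.05 after correction for gene length.

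Of the remaining Adamts genes, Adamts17 varied most. Adamts17, mutated in a Weill-Marchesani-like syndrome, was at 4.66, 1.17, 5.12 and 1.18 RPKM (mean 3.03 ± 0.166) from 1225, 262, 1115 and 308 reads. Again the replicate 1 libraries formed the high pair, 3.96 times (3.47 to 4.55) the replicate 2 library in passage 9 and 4.34 times (3.82 to 4.94) in passage 39. Adamts10, the gene of another form of that syndrome, was at 11.8, 11.3, 11.2 and 11.2 RPKM (mean 11.4 ± 0.246). It was the only expressed gene of these families in which both libraries of passage 39 lay below both of passage 9, a difference of -0.04 on the log2(RPKM + 1) scale, where 6.21% of all genes were separated by passage in either direction.

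The procollagen N-proteinase genes Adamts2 and Adamts3, whose enzymes trim the amino-terminal propeptide of fibrillar collagens, stood at 19.3, 15.9, 19.8 and 15.5 RPKM for Adamts2 (mean 17.6 ± 0.0706). Adamts3 was at 1.68, 1.85, 1.70 and 1.89 RPKM (mean 1.78 ± 0.0213), and Adamts14, of the same group, had 0.113 RPKM. Adamts2 was lower in both replicate 2 libraries, a log2 difference of -0.30, while the small difference of Adamts3, 0.09, turned to -0.00 when libraries were scaled to a common sum. Adamts7, which cuts cartilage oligomeric matrix protein, was at 9.21, 12.9, 9.19 and 12.9 RPKM (mean 11.0 ± 0.0100) and was higher in replicate 2 by 0.44. Adamts12, of the same group, had 0.139 RPKM from 183 reads. Adamts6 was at 1.09, 1.46, 0.922 and 1.61 RPKM (mean 1.27 ± 0.00574), higher in replicate 2 by 0.34. Adamts19 had 1 read, and Adamts16 and Adamts18 were listed at 0.

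The Adamts-like genes were split in direction. Adamtsl5, a fibrillin-binding protein, was at 30.5, 41.1, 28.9 and 39.5 RPKM (mean 35.0 ± 1.13) and Adamtsl4, which also binds fibrillin, at 8.59, 13.4, 8.70 and 13.4 RPKM (mean 11.0 ± 0.0577). Both were higher in each replicate 2 library, Adamtsl4 by 1.56 times (1.47 to 1.65) in passage 9 and 1.54 times (1.45 to 1.64) in passage 39. Adamtsl4 had the largest positive log2 difference of the 24 genes, 0.58, which is just under 1.5-fold on the log2(RPKM + 1) scale though the read ratios are above it. Adamtsl3, at 15.8, 12.9, 15.3 and 13.6 RPKM (mean 14.4 ± 0.0419), and Adamtsl1, at 3.33, 2.77, 3.18 and 2.88 RPKM (mean 3.04 ± 0.0148), were lower in each replicate 2 library. The sign of Adamtsl1, -0.15, turned to 0.07 after correction for gene length. Adamtsl2 was listed at 0.

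Passage 9 and passage 39 were compared to ask whether the families differed between the parental population and an older one. With the labels as given, no gene of these families changed 2-fold. Were the labels of the 2 libraries named above exchanged, the same values would place the high and low pairs of Mmp2 in different passages. The 24 expressed genes differed by between -0.07 (Adamtsl5) and 0.07 (Mmp19) on the log2(RPKM + 1) scale, with a median of 0.00, the same to 2 decimals as that of all 11025 genes. A difference of 2-fold was reached by 0 of the 24 genes, where 0.00907% of all genes (1 gene) reached it, and a difference of 1.5-fold by 0 of 24, where 0.0272% did. Compared within replicate number, so that like libraries were set side by side, the interval of the read ratio excluded 1 for 3 of 24 genes between the replicate 1 libraries (all genes, 6.26%) and for 5 of 24 between the replicate 2 libraries (all genes, 8.86%). Adamtsl5 was the only gene in both of these sets. Adamts17 and Timp1 completed the former set, and Adamtsl3, Mmp14, Mmp15 and Timp2 the latter. Counting error is the smallest error that libraries can have, so these intervals do not show a difference between populations. A passage mean rests on 1 library of each number, so leaving out 1 library moved the passage difference of Mmp2 in either direction. It came to -1.01, past 2-fold, without replicate 1 of passage 39, to -0.98 without replicate 2 of passage 9, to 0.96 without replicate 1 of passage 9 and to 0.99 without replicate 2 of passage 39. For Adamts17 the leave-outs ran from -0.69 to 0.80.

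**Figure D3:**
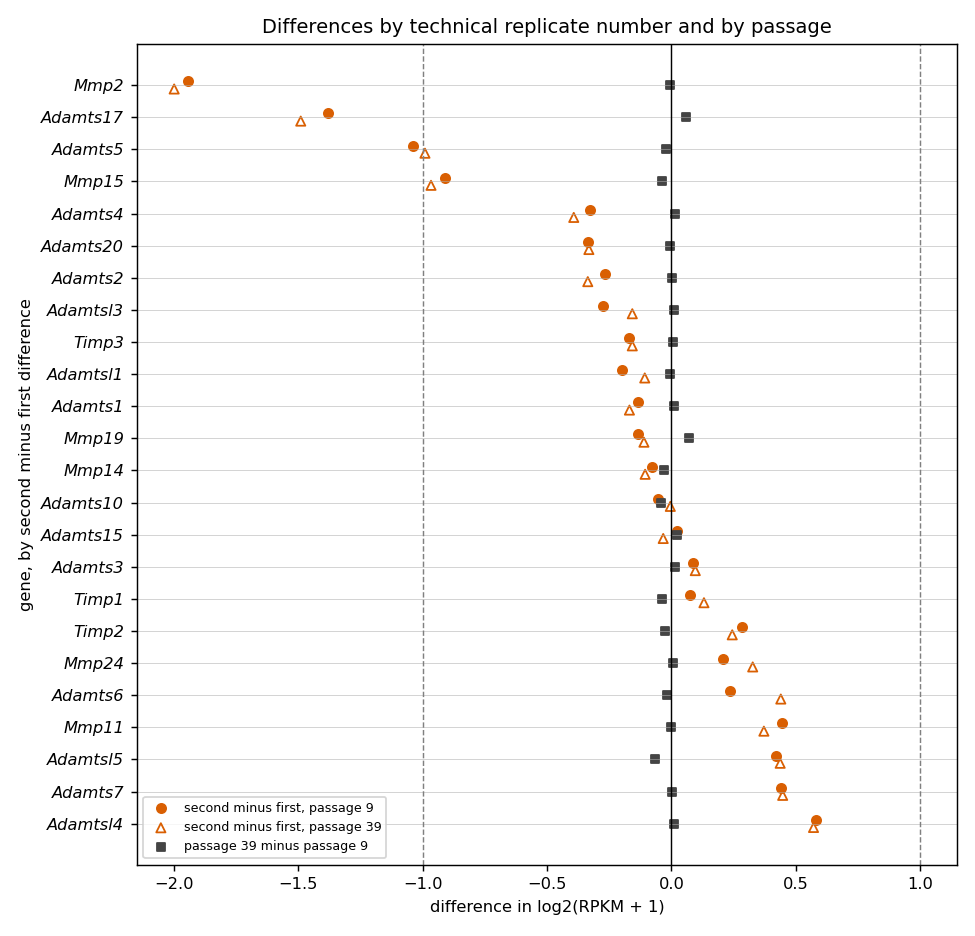
Differences in log2(RPKM + 1) (x axis) of the 24 expressed genes (y axis): technical replicate 2 minus 1 in passage 9 (circles) and in passage 39 (triangles), and passage 39 minus passage 9 (squares); dashed lines mark 2-fold. The squares lie between -0.07 and 0.07, while circles and triangles run from about -2 for Mmp2 to 0.58 for Adamtsl4 and lie side by side for each gene.

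By technical replicate number the families differed far more than by passage, and the expressed proteases with the largest differences were lower in replicate 2. Mmp2 (-1.97), Adamts17 (-1.43) and Adamts5 (-1.01) passed 2-fold on the log2(RPKM + 1) scale, which made 3 of 24 genes where 1.1% of all genes did. All 3 were lower in replicate 2, where 0.726% of all genes were, and 0 of 24 were higher by 2-fold, where 0.372% of all genes were. Mmp15 (-0.94) joined them at 1.5-fold, which made 4 of 24 against 6.06% of all genes. It also passed 2-fold under both other scalings of the libraries (-1.03 with median-ratio scaling and -1.08 with a common sum). Adamts5 was close to the limit and came to -0.99 without replicate 1 of passage 9. The intervals of the read ratio excluded 1 for 21 of 24 genes in passage 9 and for 21 of 24 in passage 39, where 72% and 70.6% of all genes did so. The exceptions were Adamts3, Adamts10 and Adamts15 in both passages.

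Both libraries of 1 number were above both of the other in 22 of the 24 genes, a share near the 87.7% of all genes. With the values as deposited, the direction differed from that of all genes. Lower in replicate 2 without overlap were 13 of the 24 genes, where 30.5% of all genes were, and higher were 9 of 24, where 57.2% of all genes were. The median difference of the 24 genes was -0.11, whereas that of all 11025 genes was 0.10, and 17 of the 24 lay below the latter. These counts describe the families and were not tested. The split of all genes moved with the scaling of the libraries. The lower share of genes without overlap was 34.8% as deposited, 46.3% with median-ratio scaling and 55.1% with a common sum, and for the 24 genes it was 59.1%, 65.2% and 69.6%. Among 2-fold calls of all genes the lower share was 66.1%, 79.0% and 82.1%. The correction for gene length set the median difference of all genes to 0. By sign, 14 of the 24 genes were then lower in replicate 2 and 10 higher.

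**Figure D4:**
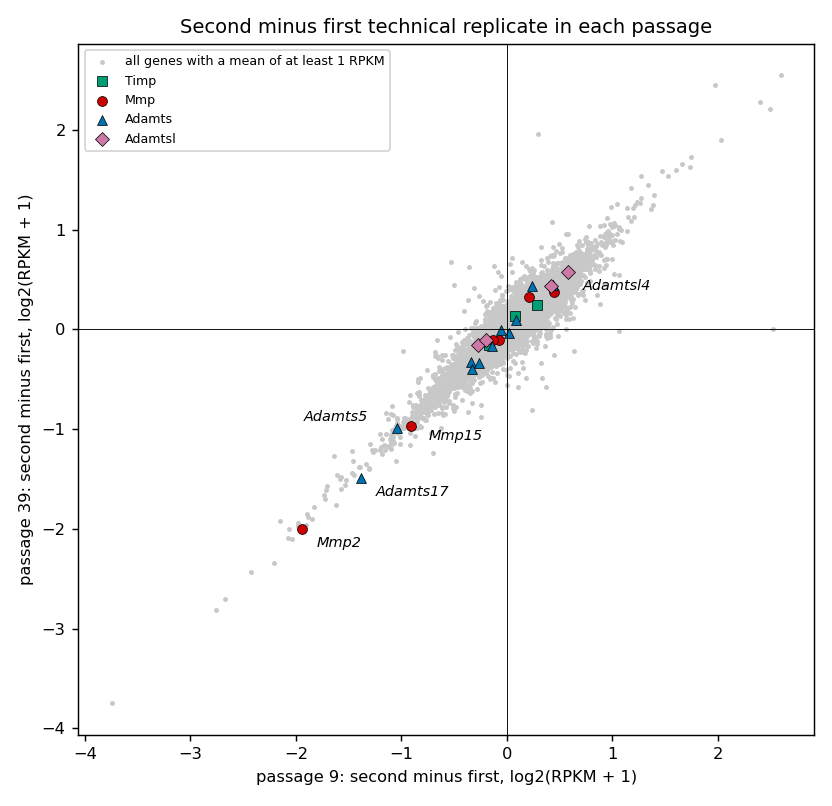
Difference between technical replicates 2 and 1 in log2(RPKM + 1) within passage 9 (x axis) and within passage 39 (y axis), for all 11025 genes that averaged 1 RPKM or more (grey) and for the 24 expressed genes of the families (coloured by family). Mmp2, Adamts17, Adamts5 and Mmp15 lie at the lower left, and Adamtsl4 lies highest among the coloured points.

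The balance of inhibitor and enzyme RNA, taken within each library and so free of library scaling, also followed the replicate numbers. The ratio of summed Timp to summed Mmp RPKM was 2.87 and 2.83 in the replicate 1 libraries of passages 9 and 39 and 4.08 and 4.15 in the replicate 2 libraries. For the genes that act together at the cell surface, Mmp14 RPKM was 2.14 and 2.08 times that of its substrate Mmp2 in the replicate 1 libraries and 8.13 and 8.10 times in the replicate 2 libraries. Timp2 RPKM was 3.25 and 3.18 times that of Mmp2 in replicate 1 and 15.9 and 15.8 times in replicate 2, while it was 1.52 and 1.53 times that of Mmp14 in replicate 1 and 1.95 times in both replicate 2 libraries. Mmp2 thus held different places among the Mmp genes. It made up 20.8% and 21.1% of the summed Mmp RPKM in the replicate 1 libraries, ahead of Mmp19, and 7.38% and 7.35% in the replicate 2 libraries, behind Mmp19. Mmp14 and Mmp15 kept the top places in all 4 libraries. Timp3 made up 54.9% and 55.5% of summed Timp RPKM in replicate 1 and 48.7% and 49.4% in replicate 2.

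Genes that activate, anchor or otherwise restrain these enzymes were examined as a list of 29, of which 20 had a mean of at least 1 RPKM. Of these 20, 0 differed 2-fold by passage (all genes, 0.00907%), and 1, Itgb3, was 2-fold lower in replicate 2 (all genes, 0.726%). By sign 13 of the 20 were lower in replicate 2 and 7 higher, with a median of -0.12 on the log2(RPKM + 1) scale (all genes, 0.10). Without overlap 11 of the 20 were lower (all genes, 30.5%) and 6 higher (all genes, 57.2%). These counts were not tested. All 11 activators and surface partners were expressed, among them tissue plasminogen activator Plat at 243, 194, 246 and 194 RPKM (mean 219 ± 1.06), and Bsg, an inducer of Mmp expression, at 162, 173, 159 and 165 RPKM (mean 165 ± 3.69). Cd44, which holds proteases at the cell surface, was at 105, 89.0, 104 and 89.0 RPKM (mean 96.7 ± 0.418), and the proprotein convertase Pcsk6 at 45.2, 50.1, 45.6 and 49.8 RPKM (mean 47.7 ± 0.0248). Of this group 5 genes were lower in replicate 2 and 6 higher. Without overlap 5 were lower and 5 higher (all genes, 30.5% and 57.2%). Itgb3, the integrin chain that can bind Mmp2, was at 19.8, 9.27, 21.7 and 9.24 RPKM, a log2 difference of -1.08 with the same high and low pair as Mmp2. Among the 10 other inhibitors and clearance genes, 5 were expressed, 4 of them lower in replicate 2. Of these, 3 were lower without overlap (all genes, 30.5%). Serpine2, a serine protease inhibitor, was the most abundant gene of the whole list at 316, 200.2, 311 and 197 RPKM (mean 256 ± 3.06). All 3 sheddase genes, Adam10, Adam15 and Adam17, were expressed, with log2 differences of -0.20, -0.04 and -0.04. Of 5 proteoglycan substrate genes only Vcan, the versican gene, had a mean of at least 1 RPKM, at 10.6, 4.95, 10.3 and 4.91 RPKM. Bcan fell just short with a mean of 0.986 RPKM, at 1.15, 0.792, 1.25 and 0.753 RPKM, the same high and low pairs.

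The cells carried markers of Schwann cells. Sox10, the defining marker, was at 174, 183, 171 and 176 RPKM, and Erbb3, the receptor through which axonal neuregulin reaches Schwann cells, was at 104, 74.6, 102 and 76.2 RPKM. All 7 Schwann cell markers had reads and 6 had a mean of at least 1 RPKM. Of these 6 markers 5 were lower in replicate 2, all 5 without overlap, where 30.5% of all genes were. S100b, a calcium-binding protein of glia, was at 85.7, 31.8, 86.6 and 32.8 RPKM, a log2 difference of -1.39 that passed 2-fold, and Mbp, a myelin protein, was at 50.5, 29.5, 50.9 and 29.7 RPKM, a difference of -0.76. The protease genes lower in replicate 2 thus moved with most Schwann cell markers, though Sox10 did not, and the part of this in the result was not tested. Of the fibroblast markers 3 of 6 were expressed, Col1a1, Col3a1 and Pdgfra, and their summed level was 3432 to 3446 RPKM in replicate 1 and 3826 to 3934 RPKM in replicate 2. Col1a1 made up most of that sum, and the markers did not move together. Col1a1 and Pdgfra were higher in replicate 2 and Col3a1 was lower, at 82.8, 50.3, 81.9 and 48.5 RPKM, a log2 difference of -0.73. The defining fibroblast markers Dcn and Lum were near 0, with 1 and 7 reads. Macrophage markers summed to between 1.48 and 1.62 RPKM with Ptprc listed at 0, and endothelial markers to between 0.692 and 0.798 RPKM with Cdh5 listed at 0. Of the neuron markers only Tubb3 was expressed, at 49.8, 62.1, 49.6 and 63.5 RPKM, and the defining markers Rbfox3 and Snap25 had 1 read each.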

How the data were processed

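According to the study's methods, the authors prepared poly(A) TruSeq libraries, sequenced 50-bp single ends, aligned them with STAR to the rat rn5 genome, retained reads that mapped to 1 place and assigned them to genes with HTSeq, ignoring strand. The labels also name FastQC. The authors deposited RPKM values, 1 per gene symbol and library. The gene lengths and the exact library totals behind them are not given in the sources used here, and the files point to RefSeq models where the methods name Ensembl.

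Whole reads were recovered as the common divisor of a gene's values, within 0.001 of a read, for 20332 of 20333 genes above 0. These reads are the smallest whole numbers that fit, so a gene with reads in few libraries could have more. The simulated data on which this was tested took their gene lengths from the same recovery. The recovered totals were 41382234 and 35092464 reads for replicates 1 and 2 of passage 9 and 34246093 and 41083270 for those of passage 39. Each is well above the approximate read depth per cell line that the methods give. This difference was not resolved, and the read counts and intervals rest on the recovered totals. Levels are means over the libraries of a passage, then over passages. Differences are of mean log2(RPKM + 1), a scale that understates changes of low genes, among genes that averaged 1 RPKM or more. Intervals are exact Clopper-Pearson (95%), or exact binomial for read ratios, and hold counting error alone, because without molecular identifiers PCR copies of 1 molecule count as separate reads. Alternatives were median-ratio scaling, a common sum of RPKM, a pseudocount of 0.1 RPKM, other minimums, a 1.5-fold threshold, a correction by the median of genes of similar length in 20 bins, and leaving out each library.

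The members, the lists of pathway genes and markers, and the comparison by replicate number were chosen with earlier results of these data known. Values in every library are given for members with a mean of at least 1 RPKM or a 1.5-fold difference, and of the pathway genes for the 5 highest and those past 2-fold. Vcan, Bcan, Adamts8 and the Mmp cluster are named further, after their values were seen. Promoters and neighbouring genes came from RefSeq tables of GRCr8, which matched 39 of the 50 members with a promoter. Python 3.11.15, numpy 2.4.6, pandas 2.3.3, scipy 1.17.1 and matplotlib 3.10.9 were used. Adamts13 and Adamtsl6 and the mutant and clonal libraries were not analysed here, and a few genes of the lists and overlaps examined are not reported here.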

Additional observations from a re-analysis of the deposited data

Results flagged for a closer look

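In 4 members a single library stood apart from the other 3, each time because the gene had only 1 read in all: Adamts19, Mmp13, Mmp21 and Mmp28 had a value of 1 read in 1 library and 0 in the others. Chance alone sets a library apart in about 1 in 20 groups, but a gene with 1 read in all always stands out in this way, so these 4 of the 37 members with any reads follow from their read counts.

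In 3 members the difference between replicates 2 and 1 had opposite signs in the 2 passages, and this was not tested. For Adamts15 the log2(RPKM + 1) difference was 0.02 in passage 9 and -0.03 in passage 39, a gap (passage 39 minus passage 9) of -0.0565 that rests on 3021 reads. Mmp23, with 61 reads, gave -0.06 and 0.07, a gap of 0.135. Mmp20, with 3 reads, gave 0.01 and -0.02, a gap of -0.0348.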

How the results depend on the processing

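The number of members with a mean of at least 1 RPKM was 24, and between 23 and 24 with a library left out, 29 at a minimum of 0.1 RPKM and 17 at 5 RPKM. The members past 2-fold by replicate number were 3, with Mmp15 added (4) under median-ratio scaling, a common sum or a 1.5-fold threshold, without Adamts17 (2) at a minimum of 5 RPKM, and without Adamts5 (2) when replicate 1 of passage 9 was left out. Other leave-outs gave 3. By passage the number was 0 under all settings except that leaving out replicate 1 of passage 39 gave 1, Mmp2, since that comparison then sets 1 library of replicate 2 against the mean of both numbers. With 1 library left out the summed RPKM ran from 246 to 297 for Mmp, from 231 to 264 for Adamts and from 60.1 to 66.8 for Adamtsl, and for Adamts it was 248 with median-ratio scaling. No paired analysis was possible because no test was made with 1 population per passage, and the read ratios of the passages within each replicate number cover counting error only.

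The sign of the difference by replicate number turned for Timp1 (-0.04) and Adamts3 (-0.00) with a common sum, and for Timp1 (-0.12), Adamtsl1 (0.07) and Adamts15 (0.05) with the length correction, whose cause was not tested. The median difference of all genes was 0.10 as deposited and -0.02 with a common sum. Members under 5 reads, 18 of 50, are limited by depth.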
